A study of Sus scrofa domesticus with 9 samples.

Results

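The genes described here are 10 apolipoprotein genes of the pig, measured in lung tissue by 3′ mRNA-seq: APOA1, APOA2, APOA4, APOB, APOC2, APOC3, APOD, APOE, APOH and APOM. They were chosen by name from the 35670 genes of the normalized count table. A name in the table identified 9 of them. APOC2 has no name there and was taken as the unnamed gene that lies on the same strand as RefSeq APOC2 with a reciprocal overlap of at least 80%, which gave all 10. The lungs came from domestic pigs (Sus scrofa domesticus) that the study's methods call female, although its discussion speaks of males. Each of the 9 libraries is 1 animal, sampled in the upper lobe of the left lung. The standard-dose group had 4 libraries (replicates 9, 17, 33 and 41), from pigs whose feed held cholecalciferol (vitamin D3) at 2000 IU/kg while they were growers and at 1500 IU/kg as finishers. Replicates 3, 19, 27, 51 and 59 made up the 5 libraries of the increased dose, of 3000 and 2500 IU/kg. Both groups thus received cholecalciferol, in otherwise equal feed and for 88 days, and the control group is not a vitamin D-deficient group. Replicates carry the animal numbers of the sample titles, and for replicate 33 the name of the data column gives 31.

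Apolipoproteins are the protein part of lipoproteins, the particles that carry cholesterol, triglycerides and phospholipids in plasma. They hold the particles together, bind the receptors that take them up, and switch the plasma enzymes that act on them on or off. Most circulating apolipoprotein is made by hepatocytes of the liver, and some of it (APOA1, APOA4, APOB) by enterocytes of the small intestine. APOE and APOD are made in many more tissues, APOE in macrophages among other cells, and in the lung apolipoproteins are best known for lipid transport around alveolar macrophages and surfactant-producing cells.

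The 10 genes lie on 7 chromosomes of the Sscrofa11.1 assembly, and 5 of them sit in a pair of gene clusters. On chromosome 9, APOA4 (ENSSSCG00000040689, 44201508 to 44204206, minus strand), APOC3 (ENSSSCG00000015069, 44211194 to 44213533, plus strand) and APOA1 (ENSSSCG00000030921, 44216392 to 44218713, minus strand) follow each other beside APOA5. On chromosome 6, APOE (ENSSSCG00000003088, 51372292 to 51375330, plus strand) is followed by the gene of APOC4 and by APOC2 (ENSSSCG00000003086, 51404558 to 51406445, plus strand). APOC2 and the APOC4 gene overlap on the same strand in this annotation, so the division of reads between them is uncertain. The others are APOA2 (ENSSSCG00000006355, chromosome 4, 89237511 to 89240319), APOB (ENSSSCG00000008595, chromosome 3, 117250096 to 117316200), APOD (ENSSSCG00000011831, chromosome 13, 132514949 to 132562599), APOH (ENSSSCG00000040910, chromosome 12, 12827201 to 12839175) and APOM (ENSSSCG00000001411, chromosome 7, 23768984 to 23773324).

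The promoters of the 3 measured chromosome 9 genes are printed because APOA1, APOA4 and APOC3 are neighbours whose counts all had the same order between the doses. Each window runs from 250 bases before to 50 bases after the RefSeq start on Sscrofa11.1, 5′ to 3′ on the strand of the gene, and capitals mark the motif matches described after the sequences.
APOA1, chr9:44218311-44218610, minus strand: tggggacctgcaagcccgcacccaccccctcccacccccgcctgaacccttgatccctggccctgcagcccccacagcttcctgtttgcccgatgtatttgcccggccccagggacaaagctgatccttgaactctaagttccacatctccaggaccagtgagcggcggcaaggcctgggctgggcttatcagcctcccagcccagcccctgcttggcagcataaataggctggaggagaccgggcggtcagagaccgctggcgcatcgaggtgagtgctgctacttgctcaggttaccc
APOA4, chr9:44204023-44204322, minus strand: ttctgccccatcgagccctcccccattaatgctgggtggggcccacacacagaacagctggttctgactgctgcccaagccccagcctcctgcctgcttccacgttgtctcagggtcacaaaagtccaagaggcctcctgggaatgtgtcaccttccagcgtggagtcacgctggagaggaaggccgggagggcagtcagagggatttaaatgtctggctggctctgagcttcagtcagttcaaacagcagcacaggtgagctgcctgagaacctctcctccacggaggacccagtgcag
APOC3, chr9:44210921-44211220, plus strand: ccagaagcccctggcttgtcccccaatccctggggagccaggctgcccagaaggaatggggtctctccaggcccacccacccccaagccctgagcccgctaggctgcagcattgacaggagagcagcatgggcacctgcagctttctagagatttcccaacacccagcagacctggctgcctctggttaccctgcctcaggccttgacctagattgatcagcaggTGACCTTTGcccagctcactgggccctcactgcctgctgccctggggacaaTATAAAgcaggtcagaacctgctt
Windows were at hand for 9 of the 10 genes, since the RefSeq start of APOE is incomplete, and both strands were searched. The HNF4-type motif CAAAGTNCA was in 0 of the 9 windows and in 1.04% of 19259 pig promoters, and the HNF1-type motif GTTAATNAT in 0 and in 0.753%. The C/EBP-type motifs TTGCGCAA and TTGCNNAAT had 1 match, in APOA2 (2.34% of all promoters). TATAAA was found in APOC2, APOC3 and APOM, 3 of 9 against 10.8% of all promoters, and in APOC3 it lies 26 to 31 bases after the RefSeq start. Direct repeats of vitamin D receptor hexamers spaced by 3 bases were in none of the 9 windows and in 0.0312% of all promoters. The hexamers allowed were GGTTCA and its variant GGGTCA, which has G in place of T, and a variant that starts with A, AGTTCA. Repeats of the LXR hexamer AGGTCA spaced by 4 bases were also in none of the 9, and in 0.0104% of all. The nuclear receptor motif CAAAGGTCA, chosen after the windows were read, had 1 match, on the opposite strand of APOC3 from 25 to 17 bases before the start (0.312% of all promoters). It overlaps no other match. These matches describe letters only, and the absence of a match says nothing of the factor.

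The values are the authors' normalized counts, which are the reads of a gene divided by a size factor of the library. They could be turned back into whole reads, of 4253502 to 5919294 in genes per library. Reads start near the 3′ end of a transcript with this kit, and counts of different genes can be compared without a correction for length. Standard-dose replicates 9 and 41 stand apart from the other libraries. Their median Spearman correlation with the other libraries was 0.751 and 0.831, where it was 0.912 to 0.933 for the other 7. Markers of other tissues differed between the libraries. The summed count of the 22 hepatocyte markers that could be tested, of 24 listed and none of them among the 10 genes, was 402326 in replicate 9 and 118319 in replicate 41, against 57455 to 61130 in the other standard-dose libraries and 32531 to 68726 at the increased dose. The lung epithelium markers summed to 5053 in replicate 9 and to 17646 to 33897 in the other 8. SFTPC (surfactant protein C), 1 of them, was at 1058 against 4695 to 8322. Both this sum and SFTPC were thus lowest in replicate 9. Skeletal muscle markers summed to 37631 in replicate 9, 264262 in replicate 41 and 63498 to 151550 elsewhere, and macrophage markers to 12393, 4035 and 15032 to 24616. Of the enterocyte markers CDX1, CDX2, SI and LCT were at 0 in all 9 libraries, and FABP2 had reads only in increased-dose replicate 27. VIL1, the only one counted enough to be tested, was at 91.0 in replicate 9, 73.9 in replicate 41 and 3.66 to 35.0 elsewhere. Between the doses, 10 of 11 lung epithelium markers had positive log2 fold changes (median 0.69, and 0.11 without replicate 9), and 8 of 8 muscle markers negative ones (median −0.24, and −0.73 without replicate 9). Their part in the results on the apolipoprotein genes was not tested. In bulk tissue, fewer cells of a type and less RNA per cell cannot be told apart.

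All 10 apolipoprotein genes were read in every library, and each had a lower mean log2 level at the increased dose. For 9 of them the highest library was standard-dose replicate 9, from 6.40 times (APOB) to 37.7 times (APOC3) the median of the other 8. APOD was the exception, with its lowest value there. Without replicate 9, the highest and the lowest of the other 8 libraries differed by 2.29 times (APOE) to 3.98 times (APOB). Below, values are listed for standard-dose replicates 9, 17, 33 and 41, then for increased-dose replicates 3, 19, 27, 51 and 59. Fold changes are log2 of the normalized count plus 1, increased minus standard dose, with the standard error (SE) of limma, and the p-values of single genes are from exact two-sided permutation tests of that difference, not adjusted. The smallest p that 4 against 5 libraries allow is 0.00794, and 3 against 5 allow 0.0179.

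**Figure D1:**
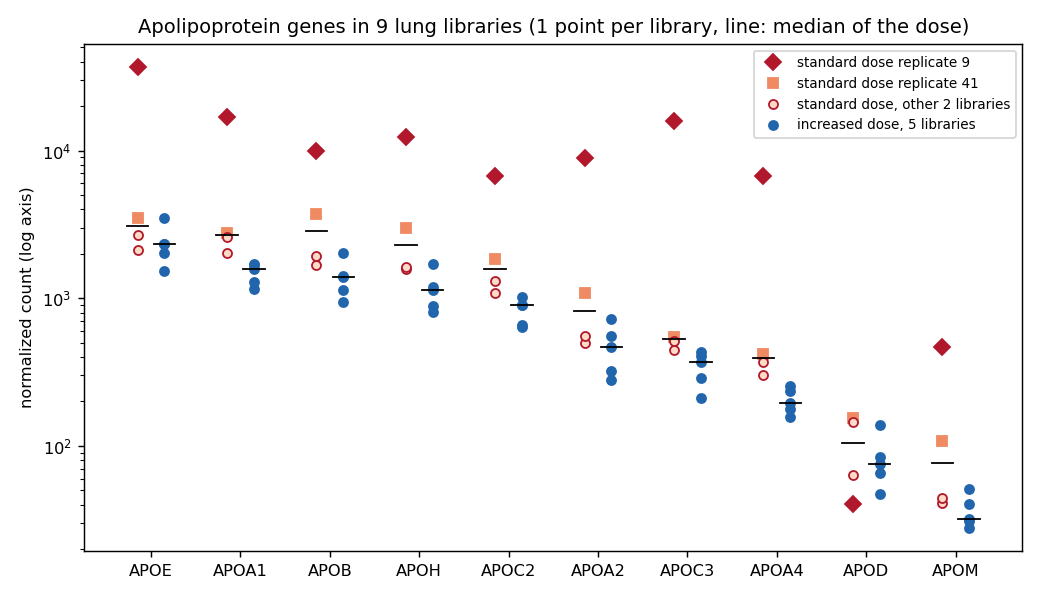
Normalized counts (log axis) of the 10 apolipoprotein genes, 1 point per library, with the standard dose on the left and the increased dose on the right of each gene and a line at the median of the dose. Standard-dose replicate 9 is above all other points for every gene but APOD, at 36761 for APOE and 15768 for APOC3.

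APOA1 encodes the main structural protein of high-density lipoprotein (HDL) and activates LCAT, the enzyme that esterifies cholesterol on it. Its normalized counts were 16767, 2029, 2583 and 2785 at the standard dose and 1678, 1576, 1712, 1286 and 1163 at the increased dose. All 5 increased-dose values lay below the lowest standard-dose value. The means were 6041 ± 7158 (SD, n = 4) and 1483 ± 245 (SD, n = 5), the log2 fold change was −1.43 ± 0.50 (SE) and the exact permutation p was 0.00794. Leaving out replicate 9, the highest library, could not bring overlap. The log2 fold change was then −0.74 ± 0.21 and the exact permutation p 0.0179.

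APOA2 encodes the second structural protein of HDL. It was counted at 8853, 495, 553 and 1089, and at 465, 724, 552, 324 and 280. The groups overlapped, since increased-dose replicates 19 and 27 were above standard-dose replicate 17 and replicate 19 also above replicate 33. The means were 2747 ± 4079 (SD, n = 4) and 469 ± 179 (SD, n = 5), with a log2 fold change of −1.53 ± 0.68 (SE) and an exact permutation p of 0.0714. It was −0.60 ± 0.33 without replicate 9 (exact permutation p = 0.179).

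APOA4 encodes apolipoprotein A-IV, which is found on chylomicrons and HDL and in mammals is made mostly by the small intestine. Counts of 6678, 302, 369 and 416 stood against 195, 177, 256, 236 and 158, with no overlap between the doses. The means were 1941 ± 3158 (SD, n = 4) and 205 ± 40.7 (SD, n = 5), and the log2 fold change of −1.89 ± 0.72 (SE) was the most negative of the 10 (exact permutation p = 0.00794). Leaving out replicate 9, the highest library, could not make the doses overlap. Without it the log2 fold change was −0.83 ± 0.23 (exact permutation p = 0.0179).

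APOC2 and APOC3 act on lipoprotein lipase, which clears triglycerides from plasma: APOC2 is its cofactor, and APOC3 inhibits lipolysis and slows the uptake of remnant particles. APOC2 was counted at 6691, 1079, 1315 and 1834 and at 897, 900, 1026, 642 and 655. The highest increased-dose library, replicate 27, was just below the lowest standard-dose library, replicate 17. Its means were 2730 ± 2660 (SD, n = 4) and 824 ± 169 (SD, n = 5), and the log2 fold change was −1.33 ± 0.44 (SE), with an exact permutation p of 0.00794. Without replicate 9 it was −0.76 ± 0.23 (exact permutation p = 0.0179). For APOC3 the counts were 15768, 448, 517 and 544 and 433, 287, 403, 372 and 210. The doses did not overlap here either, but replicate 17 at the standard dose and replicate 3 at the increased dose were close, and replicate 9 was 30.5 times the median of the other 3 standard-dose libraries. APOC3 had means of 4319 ± 7632 (SD, n = 4) and 341 ± 91.4 (SD, n = 5) and a log2 fold change of −1.84 ± 0.84 (SE, exact permutation p = 0.00794). This fell to −0.60 ± 0.25 without replicate 9, with an exact permutation p of 0.0714, and 4.07% of the difference of the means was left.

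APOB encodes the large protein around which very low-density lipoprotein and chylomicrons are built and which stays on low-density lipoprotein. Its counts were 9914, 1686, 1929 and 3739, and 1414, 2017, 1402, 1144 and 939. The doses overlapped through increased-dose replicate 19, which was above replicates 17 and 33. Means of 4317 ± 3842 (SD, n = 4) and 1383 ± 406 (SD, n = 5) gave a log2 fold change of −1.31 ± 0.45 (SE) and an exact permutation p of 0.0317. Without replicate 9 it was −0.78 ± 0.29 (exact permutation p = 0.0893).

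APOE is the ligand by which remnant particles bind their receptors, and it is also made by macrophages, which release it with cholesterol. It was the most counted of the 10 genes, at 36761, 2672, 2112 and 3495 and at 2336, 3517, 2018, 2313 and 1536. Outside replicate 9 the doses lay over each other, and increased-dose replicate 19 was the highest of these 8 libraries. The means were 11260 ± 17010 (SD, n = 4) and 2344 ± 731 (SD, n = 5), and the log2 fold change was −1.20 ± 0.66 (SE, exact permutation p = 0.127). Without replicate 9 it was −0.26 ± 0.26 (exact permutation p = 0.411). The 10 macrophage markers summed to 12393 in replicate 9, to 4035 in replicate 41 and to 15032 to 24616 in the others. Only 1 of the markers was highest in replicate 9, CSF1R, the receptor of a macrophage growth factor, at 816 against 112 to 332. Between the doses, 9 of these 10 markers had positive log2 fold changes, with a median of 0.82. At an unadjusted limma p under 0.05, 3 of them were higher, where 5.57% of all genes tested were. The part of macrophages in the values of APOE was not tested.

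APOH encodes beta-2-glycoprotein I, a plasma protein that binds anionic phospholipids. It was counted at 12384, 1581, 1631 and 2966, and at 1143, 1714, 1197, 883 and 809. Only increased-dose replicate 19 reached into the standard-dose range. From means of 4640 ± 5202 (SD, n = 4) and 1149 ± 356 (SD, n = 5) the log2 fold change was −1.49 ± 0.51 (SE, exact permutation p = 0.0238), and −0.83 ± 0.28 without replicate 9 (exact permutation p = 0.0893).

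APOM and APOD belong to the lipocalins, a family of small proteins with a pocket for a lipid, and were the least counted of the 10 genes. APOM carries sphingosine-1-phosphate on HDL. Its counts were 468, 41.1, 44.4 and 109 against 40.7, 51.2, 27.9, 31.9 and 30.8. Increased-dose replicate 19 was above replicates 17 and 33, and the other increased-dose libraries were below all of the standard dose. APOM means were 166 ± 204 (SD, n = 4) and 36.5 ± 9.50 (SD, n = 5), with a log2 fold change of −1.44 ± 0.60 (SE, exact permutation p = 0.0317) and −0.70 ± 0.40 without replicate 9 (exact permutation p = 0.0893).

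APOD, which binds arachidonic acid and progesterone and is expressed in many tissues outside the liver, differed from the other 9 genes in its pattern over all libraries. It was counted at 40.3, 144, 63.5 and 153 and at 75.1, 139, 83.6, 66.0 and 47.2. The lowest library was standard-dose replicate 9 and the highest was standard-dose replicate 41, so that the increased dose lay inside the range of the standard dose. Means of 100 ± 56.9 (SD, n = 4) and 82.2 ± 34.5 (SD, n = 5) gave a log2 fold change of −0.17 ± 0.43 (SE, exact permutation p = 0.762). The log2 fold change was −0.53 ± 0.38 without replicate 9, and positive (0.071, 0.10 and 0.0034) without standard-dose replicate 17 or 41 or increased-dose replicate 59. With the skeletal muscle markers, which were also lowest in replicate 9 and highest in replicate 41, the log2 level of APOD had a Pearson correlation of 0.915 over the 9 libraries. Without replicate 9 this correlation was 0.882, inside the range of the other 9 genes, from 0.518 (APOC3) to 0.957 (APOH). The correlations of APOD with those genes were then 0.404 (APOA4) to 0.902 (APOE), and 0.775 with the hepatocyte marker level. These are descriptions over libraries of differing tissue makeup, and the part of muscle in them was not tested.

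In the fit across all 12446 genes with a mean normalized count over 20, no apolipoprotein gene passed an adjusted p of 0.05 in limma. The background was 0% of genes called lower at the increased dose. Adjusted p-values of the 10 genes in limma were 0.397 for APOA1, APOA4, APOB, APOC2 and APOH, 0.401 for APOM, 0.404 for APOA2, 0.407 for APOC3, 0.444 for APOE and 0.880 for APOD. At an unadjusted limma p under 0.05, 8 of the 10 genes were lower (all but APOD and APOE), where 6.60% of all genes tested were. The log2 fold change was negative for 10 of 10, against 49.2% of all genes, with a median of −1.44 against 0.0084 over all genes. Without replicate 9 the median of the 10 genes was −0.72, and without replicates 9 and 41, an alternative chosen after the data were seen, −0.48. edgeR on the recovered reads also called none of the 10 after adjustment, although 9 of 10 were lower at an unadjusted p under 0.05, where 10.9% of all genes were. With DESeq2, 4 of the genes were called lower, which were APOB, APOC2, APOH and APOM (adjusted p of 0.0369, 0.0312, 0.0312 and 0.0375), where 1.39% of genes were called lower. It gave no p-value for APOA1, APOA2, APOA4, APOC3 and APOE, so these 5 could not be called. With replicate 9 left out, also chosen after the data were seen, DESeq2 had a p-value for all 10 genes and called none, where 0.0491% of all genes were called lower. At an unadjusted p under 0.05 it had 6 of 10 lower, and 5.60% of all genes.

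No overlap between the doses, with every increased-dose library below every standard-dose library, was seen for 4 of the 10 genes (APOA1, APOA4, APOC2 and APOC3) and for 2.01% of all genes tested. Without replicate 9 it was seen for the same 4 genes, beside 2.85% of all genes. That library was the highest for each of the 4, so leaving it out could not bring overlap. Replicate 9 was the highest library for 9 of 10 genes and for 29.1% of all genes. Increased-dose replicate 59 was the lowest library for 7 of the 10, and the share of all genes lowest there was not counted. Exact permutation tests were run on the 10 genes only, so their counts have no share of all genes beside them. Of the exact permutation p-values, 7 of 10 were under 0.05 with all libraries and 3 of 10 (APOA1, APOA4 and APOC2) without replicate 9. With each library left out in turn, those of APOA1, APOA4 and APOC2 were 0.0179 (a standard-dose library out) or 0.0286 (an increased-dose library out). These are the smallest p that 3 against 5 and 4 against 4 libraries allow. Groups without overlap stay so whichever library is left out, so the 0.0286 had to follow. APOB and APOH were at 0.0536 without replicate 41 and at 0.0857 without increased-dose replicate 3, 27, 51 or 59. APOM was at 0.0714 without replicate 41, at 0.0857 without replicate 3 and at 0.114 without replicate 27, 51 or 59. APOA2 was at 0.0357 without standard-dose replicate 17, and at 0.0476 with all libraries on normalized counts without the log.

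**Figure D2:**
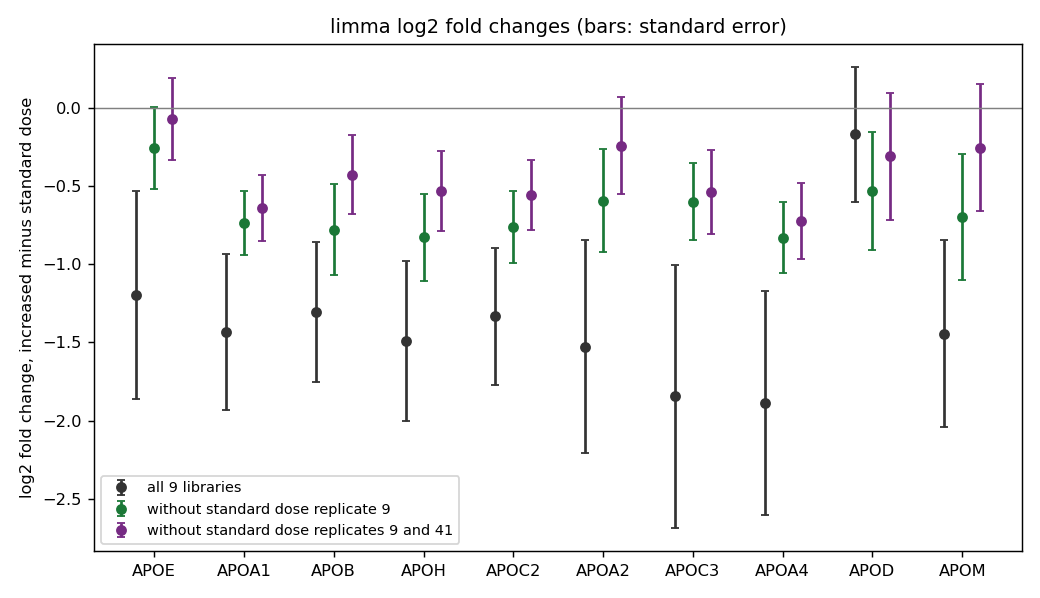
Log2 fold changes (increased minus standard dose) of the 10 genes from limma with all 9 libraries, without standard-dose replicate 9, and without standard-dose replicates 9 and 41. Bars are standard errors. The median over the 10 genes moves from −1.44 to −0.72 and −0.48.

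The hepatocyte markers moved with these genes. All 22 that could be tested had negative log2 fold changes, with a median of −1.31 and, without replicate 9, −0.72. With the mean log2 level of these markers as a covariate in limma, the log2 fold changes of the 10 genes ran from −0.54 (APOD) to 0.62 (APOE, SE 0.28), with a median of −0.053. APOA2, APOC3 and APOM also turned positive in that fit (0.40, 0.37 and 0.12). No gene passed the adjusted threshold in it, and 1 of the 10, APOE, had an unadjusted limma p under 0.05. The marker level and the dose are related in these libraries, so this fit cannot tell them apart. Where the hepatocyte transcripts came from was not tested.

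A ratio within a library does not depend on its size factor, and ALB (serum albumin, the most abundant plasma protein of hepatocytes) was used as the reference. APOB followed albumin most closely. Per 1000 ALB counts it was counted at 90.4, 90.8 and 90.1 in standard-dose replicates 17, 33 and 41, at 83.2, 89.1, 90.1, 88.4 and 84.1 in the increased-dose libraries, and at 106 in replicate 9. Its counts themselves differed by 3.98 times over these 8 libraries, so most of the spread of APOB was shared with albumin. The log2 ratio of APOB to ALB differed by −0.11 between the doses (increased minus standard, exact permutation p = 0.0238, the only one of the 10 genes under 0.05). It was −0.057 without replicate 9 (exact permutation p = 0.143). The exact permutation p was 0.0571 without increased-dose replicate 3, 19, 51 or 59, and 0.167 with TTR (transthyretin, another plasma protein of hepatocytes) as the reference.

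The other genes departed from albumin in replicate 9 by unequal amounts. APOC3 was counted at 168 per 1000 ALB in replicate 9 and at 12.7 to 28.8 in the other 8 libraries. APOA4 was at 71.1 against 7.83 to 18.3, and APOE at 392 against 84.2 to 179. APOA2 was at 94.3 against 25.0 to 35.5, and APOM at 4.99 against 1.79 to 2.76. These genes thus exceeded albumin more than APOA1 (179 against 67.1 to 122), APOH (132 against 67.2 to 84.8) and APOC2 (71.3 against 39.7 to 66.0). APOD was at 0.43 against 2.99 to 7.75. Between the doses the log2 ratios to ALB differed by −0.69 (APOA4) to 1.02 (APOD), with exact permutation p-values of 0.0635 to 1 for the 9 genes other than APOB. Leaving out 1 library brought 3 of them under 0.05. APOA1 (−0.48) and APOH (−0.40) had an exact permutation p of 0.0357 without standard-dose replicate 41, and APOD (1.58) one of 0.0179 without replicate 17.

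**Figure D3:**
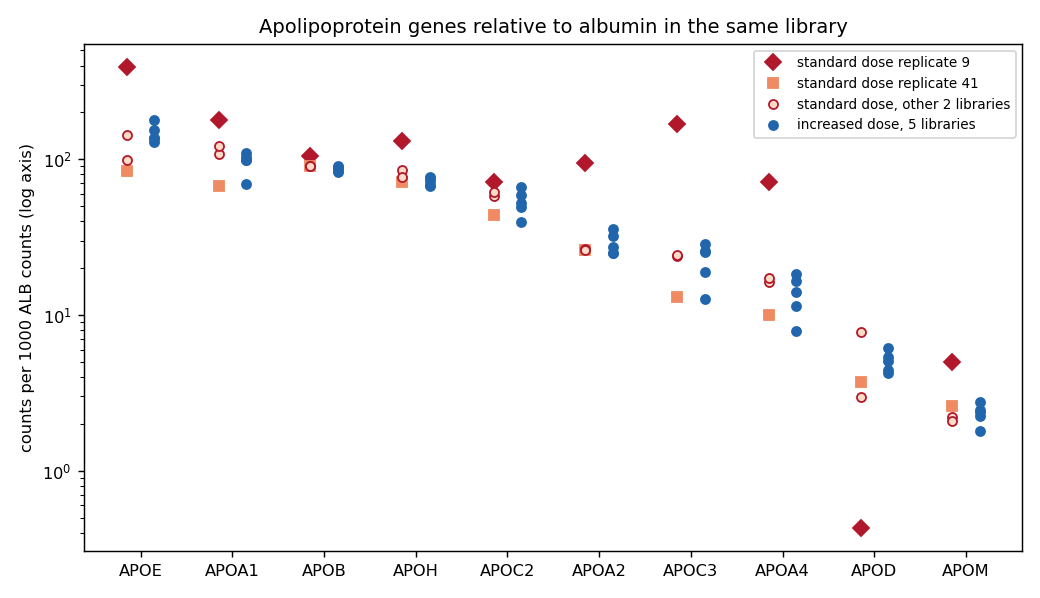
Counts of each apolipoprotein gene per 1000 ALB counts of the same library (log axis), 1 point per library. APOB lies between 83.2 and 90.8 in 8 libraries and at 106 in standard-dose replicate 9, while APOC3 is at 168 in that library and at 12.7 to 28.8 in the others.

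In 8 of the 9 libraries albumin also kept a near-constant ratio to a muscle gene. Per 1000 counts of ACTA1 (skeletal muscle actin) ALB was at 198 to 282, and in replicate 9 at 3540. APOB per 1000 ACTA1 was at 17.9 to 25.6 in the 8 libraries and at 374 in replicate 9. Over these 8 libraries the log2 level of the muscle markers had Pearson correlations with the genes of 0.518 (APOC3) and 0.545 (APOA4) to 0.953 (APOB) and 0.957 (APOH). The libraries share the size factors and the tissue makeup, so these are descriptions. ACTA1 as the reference was an alternative chosen after the data were seen. With it and without replicate 9, 9 of the 10 genes had exact permutation p-values of 0.286 or above between the doses. APOE was higher at the increased dose by 0.55 on the log2 scale (exact permutation p = 0.0179, the smallest that 3 against 5 allow). APOE was at 28.3, 28.1 and 18.5 per 1000 ACTA1 in replicates 17, 33 and 41 and at 32.2, 33.6, 33.5, 47.8 and 33.8 at the increased dose, without overlap. With all 9 libraries its difference was −0.91 (exact permutation p = 0.849), as replicate 9 was at 1386. The part of muscle RNA in these values was not tested.

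**Figure D4:**
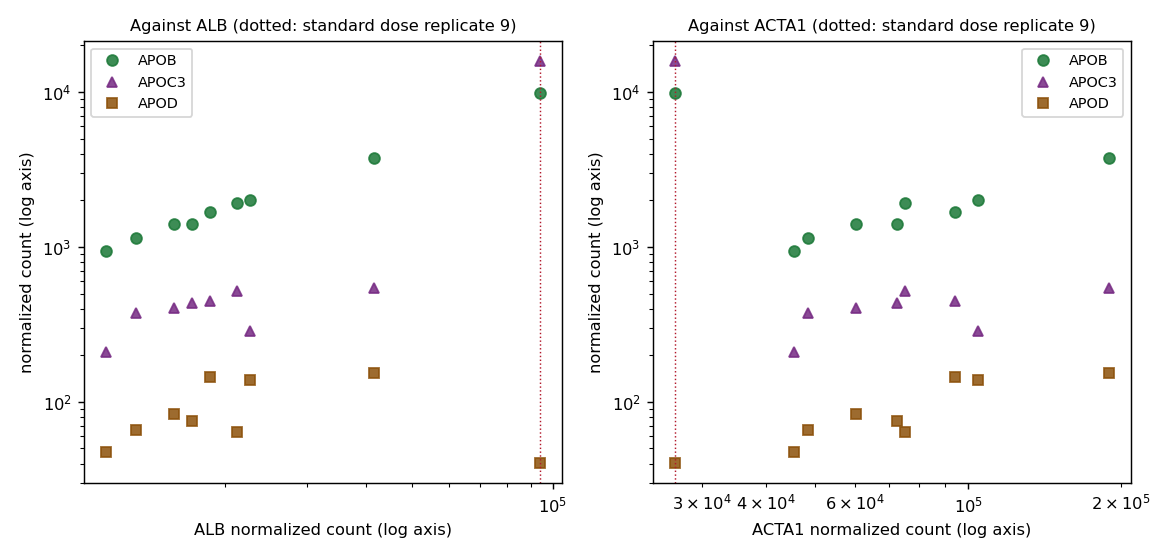
Normalized counts of APOB, APOC3 and APOD against those of ALB (left) and ACTA1 (right), 1 point per library on log axes, with a dotted line at standard-dose replicate 9. In that library ACTA1 was lowest, at 26520, and ALB highest, at 93890, and APOD was lowest there, at 40.3.

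The 10 genes together took 1.65% of the reads in genes in replicate 9 (95% Wilson interval 1.64% to 1.66%). In standard-dose replicates 17, 33 and 41 they took 0.222%, 0.236% and 0.360%, and at the increased dose 0.204%, 0.220%, 0.190%, 0.160% and 0.127%. The mean was 0.617 ± 0.692% (SD, n = 4) at the standard dose, 0.180 ± 0.0369% (SD, n = 5) at the increased dose, and 0.273 ± 0.0759% (SD, n = 3) for the standard dose without replicate 9. The difference of the means was −0.437 percentage points and −0.0924 without replicate 9. Intervals cover counting error only, and the difference between libraries is far wider than they are.

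Within this total the makeup also differed. APOC3 was 13.8% of the summed counts of the 10 genes in replicate 9 and 2.59% to 5.10% in the others, while APOB was 8.67% against 15.7% to 21.8%. APOE was 32.2% in replicate 9, just above the range of the other 8 (19.0% to 31.7%). The ratio of APOC3 to its neighbour APOA1 was 0.940 in replicate 9 and 0.181 to 0.289 in the other 8, and that of APOA4 to APOA1 was 0.398 against 0.113 to 0.183.

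By the median of the increased-dose libraries the order of levels was APOE, APOA1, APOB, APOH, APOC2, APOA2, APOC3, APOA4, APOD and APOM. The ranges of neighbours in this order overlapped, except that APOA4 (158 to 256) stood above APOD (47.2 to 139). At the standard dose the order by median was the same apart from APOB and APOA1, which were exchanged. In replicate 9 APOC3 ranked 3rd, behind APOE and APOA1, where it ranked 7th by the medians of both doses.

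Over the 9 libraries the log2 levels of APOA1, APOA2, APOA4, APOB, APOC2, APOC3, APOE, APOH and APOM had Pearson correlations of 0.936 to 0.997 with the mean level of the hepatocyte markers. Without replicate 9 these were 0.995 for APOB, 0.985 for APOH, 0.949 for APOM and 0.943 for APOA2, but 0.716 for APOA4 and 0.650 for APOC3. Among genes outside the lists, the 2 closest in pattern to APOH were AMBP (0.999), the precursor of alpha-1-microglobulin, and KNG1 (0.998), which encodes kininogen. Those of APOB were FETUB and ADH1C (both 0.995), those of APOA2 CFB (0.995) and SERPINA3-2 (0.994), those of APOE C8G (0.996) and MSRB1 (0.993) and those of APOM TSKU (0.994) and SULT2A1 (0.993). UROS (0.995) and SORD (0.993) were closest to APOA1, METTL7B (0.997) and TST (0.993) to APOA4, EHHADH (0.991) and UGT2B31 (0.990) to APOC2, and FXYD7 (0.998) and LTC4S (0.994) to APOC3. HOMER3 (0.957) and DRC1 (0.936) were closest to APOD. The 9 libraries include replicate 9, the highest for each of these apolipoprotein genes but APOD, so these correlations describe its position as much as that of the other 8.

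Most of the named genes near the measured members of the clusters were also higher in replicate 9 than elsewhere, by differing amounts. Of all genes tested, 29.1% were highest in that library. APOA5 on chromosome 9, which supports the lipolysis of plasma triglycerides, was at 482 in replicate 9 and at 6.09 to 66.0 elsewhere. The flanking genes ZPR1 and SIK3 were at 737 and 610 in replicate 9 against 341 to 504 and 157 to 280. The APOC4 gene on chromosome 6 was at 8713 against 293 to 1198, and CLPTM1, which follows APOC2, at 203 against 17.9 to 64.9. TOMM40, on the other side of APOE, was an exception, at 113 and inside its range of 66.0 to 191 elsewhere. RELB, which follows CLPTM1, was another exception and was lowest in replicate 9, at 58.2 against 62.9 to 119 elsewhere.

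Among the other genes of lipoprotein metabolism no gene passed the adjusted threshold in limma, and edgeR also called none. A list of other apolipoproteins, with the paraoxonases carried on HDL (PON1, PON2 and PON3) and the mitochondrial protein APOOL, which shares only the name, had 10 genes tested. All 10 had negative log2 fold changes (median −1.04, and −0.36 without replicate 9), with 4 (APOC4, APOF, PON1 and PON3) at an unadjusted limma p under 0.05. The most counted were CLU (−1.14 ± 0.56), or clusterin, an extracellular chaperone also called apolipoprotein J, APOC4 (−1.64 ± 0.64) and SAA3 (−1.62 ± 0.78), an acute-phase apolipoprotein. Of the 17 transcription factors of apolipoprotein genes, 16 were negative, with a median of −0.91 and, without replicate 9, −0.32. PPARA, a fatty acid-sensing receptor, was at −1.41 ± 0.52, its partner RXRA at −0.20 ± 0.20 and CEBPB at 0.64 ± 0.28. At an unadjusted limma p under 0.05, 4 of the 17 were lower and 1 higher. Beside both lists, 49.2% of all genes tested had a negative log2 fold change. At that p, 6.60% of all genes were lower and 5.57% higher.

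Genes that assemble, degrade or receive lipoproteins had medians nearer to that of all genes. Of 12 assembly and secretion genes 8 were negative, with a median of −0.48 and −0.046 without replicate 9. P4HB, a subunit of the microsomal transfer protein that loads APOB with lipid, was at −0.74 ± 0.44, and SAR1B and SURF4, which carry lipoproteins out of the endoplasmic reticulum, at −0.45 ± 0.39 and −0.40 ± 0.36. Of 9 genes of plasma lipases and lipid transfer 6 were negative, with a median of −0.46 and −0.042 without replicate 9. ANGPTL4, an inhibitor of lipoprotein lipase, was at 0.13 ± 0.27 and LIPA, the lysosomal lipase, at 0.29 ± 0.29. Of 10 receptor genes 6 were negative (median −0.12, and 0.016 without replicate 9). SORL1, a sorting receptor, was at −0.82 ± 0.39. Of 12 cholesterol efflux genes 7 were negative (median −0.20, and −0.049 without replicate 9). ABCA1, which loads cholesterol onto APOA1, was at −0.31 ± 0.31, and its regulators NR1H3 and NR1H2 at −0.50 ± 0.32 and 0.35 ± 0.21. At an unadjusted limma p under 0.05 these 4 lists had 4, 2, 1 and 2 genes lower and 1, 0, 0 and 1 higher, of 12, 9, 10 and 12 tested, where 6.60% of all genes were lower and 5.57% higher. DESeq2 on the recovered reads called 5 of the 56 genes of the 6 lists for which it gave an adjusted p, and they are named here after their values were seen. CYP27A1 (−2.39), MTTP (−1.90), NR1H4 (−1.89) and PON3 (−1.63) were called lower at the increased dose and MYLIP (1.52), a ubiquitin ligase, higher, where 1.39% of all genes were called lower and 0.223% higher. None of the 5 was called by DESeq2 without replicate 9 (adjusted p of 0.106 to 0.507).

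**Figure D5:**
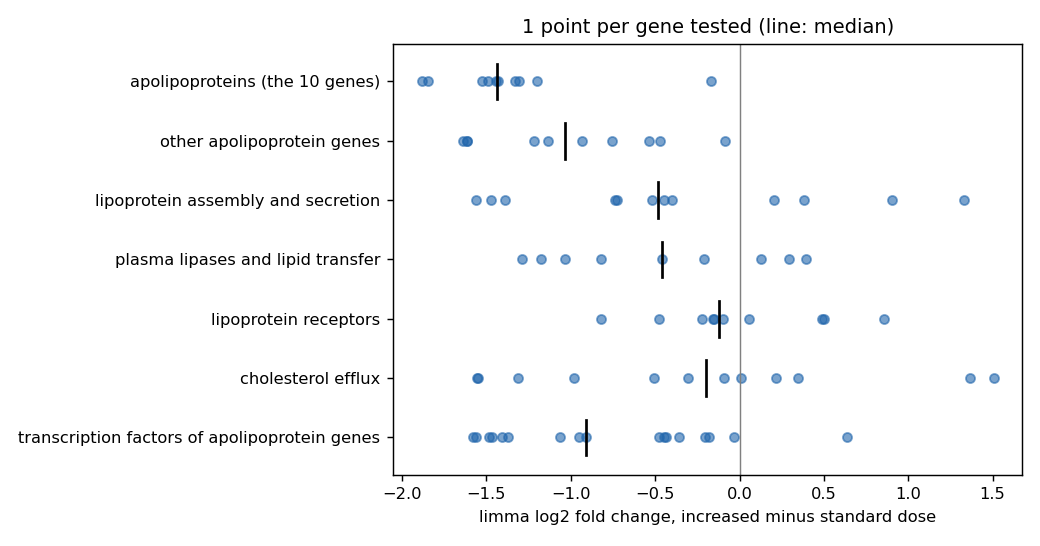
limma log2 fold changes (increased minus standard dose) of the 10 apolipoprotein genes and of 6 lists of genes of lipoprotein metabolism, 1 point per gene tested, with a line at the median of each list. The median is −1.44 for the 10 genes, −1.04 for other apolipoprotein genes (with paraoxonases and APOOL) and −0.12 for receptors, and none of these genes passed the adjusted threshold.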

How the data were processed

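RNA of 9 pig lungs was sequenced as single reads with a 3′ mRNA-seq kit (QuantSeq FWD). Per the study's methods, the authors used FastQC 11.8 for read quality, FLEXBAR 3.5.0 for trimming, TopHat 2.1.1 for alignment to Sscrofa11.1 and HTSeq-count 0.11.1 for gene counts. A 10th library was rejected by them. The deposited signal in each library is a gene count scaled by the authors with the size factor of DESeq2. The table also holds log2 fold changes, the Wald score and p-values of the authors' own comparison from DESeq2, and these deposited values were not used. Dividing by what 1 read is worth in a library (0.853 to 1.49) gave whole reads for 100% of the values, within a tolerance of 0.01.

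Genes with a mean over 20 were tested with limma 3.58.1 (lmFit, eBayes with a trend) on log2(normalized count + 1). Tests were two-sided and adjusted by Benjamini and Hochberg over all 12446 genes at a threshold of 0.05. Single genes and ratios to ALB were compared with exact two-sided permutation tests, of 10 genes each and without adjustment. edgeR 4.0.16 (quasi-likelihood) and DESeq2 1.42.0 were run on the recovered reads. Scripts ran under R 4.3.3 and under Python 3.11.15 (pandas 2.3.3, numpy 2.4.6, scipy 1.17.1, plots with matplotlib 3.10.9), and the code was tested on simulated data. Results were recomputed with pseudocounts of 0.5 and 5, without a filter or with at least 10 in at least 4 libraries, TMM factors, other tests, each library left out in turn, the hepatocyte markers as a covariate, counts without the log and TTR in place of ALB. The fits without replicates 9 and 41, edgeR and DESeq2 without replicate 9, ACTA1 as the reference and the motif CAAAGGTCA were added after the data were seen.

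The genes and lists were chosen with earlier results of these data known. All 10 genes are named, with the 3 most counted genes of each list (some of which are not reported here) and the 2 genes most correlated with each apolipoprotein gene. CSF1R, APOF, the paraoxonases, APOOL, TTR, the 5 pathway genes called by DESeq2 and the neighbours of the clusters were named after their values were seen. Fibroblast and adipocyte markers had medians of 0.21 and 0.18. Promoters are from RefSeq. Genes that the table does not name were named from Ensembl (223) or by overlap with RefSeq (632). Groups follow the dose in the labels, which give no batch. Counts of related genes can share reads near the 3′ end. APOC1, SAA1, CETP and LRP1 were not analysed here.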

Additional observations from a re-analysis of the deposited data

Results flagged for a closer look

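Standard-dose replicate 9 was far from the other 3 standard-dose libraries for 8 of the 10 genes, by a gap that exceeded the 95% critical value of Dixon's test for 4 values. Its normalized count was 16767 for APOA1, 8853 for APOA2, 6678 for APOA4, 6691 for APOC2, 15768 for APOC3, 36761 for APOE, 12384 for APOH and 468 for APOM. In all, 20 groups (10 genes at each dose) were looked at, and about 1 in 20 is flagged by chance where genes vary independently, which these genes do not. APOB and APOD in the standard-dose group, and all 10 genes in the increased-dose group, had no such gap.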

How the results depend on the processing

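The number of apolipoprotein genes past the adjusted threshold was 0 in limma and edgeR under every alternative run, and 4 in DESeq2 on the recovered reads, where 5 genes of the pathway lists also passed. It was 0 for both in DESeq2 without replicate 9. With each library left out in turn the difference in the share of reads ran from −0.569 to −0.0924 percentage points, and the count of genes past the threshold was 0 throughout. Log2 fold changes reversed for APOD without standard-dose replicate 17 (0.071) or 41 (0.10) or increased-dose replicate 59 (0.0034), with exact permutation p-values of 0.839, 0.821 and 1 (from 0.286 and −0.53 without replicate 9), and with the hepatocyte covariate for APOA2 (0.40), APOC3 (0.37), APOE (0.62) and APOM (0.12). Ratios to ALB reversed without replicate 9 for APOA2 (0.13), APOC3 (0.12), APOE (0.47) and APOM (0.012), and for APOE without increased-dose replicate 3 (0.019), 27 (0.040) or 59 (0.019). Over the libraries left out these ratios had their lowest values at −0.49 (APOA2) and −0.41 (APOM) without standard-dose replicate 33, and at −1.11 (APOC3) and −0.27 (APOE) without 41. The cause was not tested. Pseudocounts, filters and TMM factors changed no direction and no call. No paired analysis was possible because the doses share no animal numbers. With 4 and 5 libraries, of which replicate 9 moves most values by over 1.5 times, no change of the size seen without it passed the adjusted threshold of limma.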
